A study of Mus musculus with 45 samples.

Results

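The 9 genes described here are interferon-induced membrane genes and genes of the MHC class I pathway: Ifitm1, Ifitm2, Ifitm3, B2m, H2-K1, H2-D1, Tap1, Psmb8 and Irf1. They were chosen by name, and all 9 were matched among the 23575 genes of the deposited gene table. Interferons bind receptors at the cell surface and, through the JAK kinases and STAT factors, switch on genes that carry interferon response elements. IFITM proteins sit in cell and endosome membranes and hinder the entry of enveloped viruses, and Ifitm1 and Ifitm3 are also known as Fragilis genes of early germ cells. MHC class I molecules display peptides cut by the proteasome and carried into the endoplasmic reticulum by the TAP transporter, and their level is known to be low in pluripotent cells.

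Mouse neural progenitor cells were followed towards induced pluripotent stem cells by Oxford Nanopore long-read RNA sequencing of 45 libraries. The progenitors derive from embryonic stem cells with an Oct4-GFP reporter (line O4G, made from R1 cells), and were wild type (WT) or carried OKMS-Luciferase-AS or OKS-Luciferase-AS, called OKMS and OKS below. The names differ by M, and the luciferase element was carried by every OKMS and OKS library. Uninduced progenitors grew in NPC medium, a serum-free medium with EGF and FGF-2. Induced cells were replated on gelatin and given doxycycline in a medium of LIF and fetal bovine serum, called serum medium below, for 2 to 20 days. WT cells in the same serum medium for 2 days served as controls without factors. Some OKMS and OKS cultures were moved to 2i-LIF, which holds LIF and a pair of kinase inhibitors (CHIR-99021 and PD0325901) without serum. That move was at day 6 for the R9 libraries, and its day is not given for R10. The stem cells were of lines O4G, R1 and R1-Clone3, all WT, in 2i-LIF. The 22 R9 libraries were read as direct cDNA after poly(A) enrichment, and the 23 R10 libraries as amplified cDNA from total RNA. The labels do not give separate cultures for the libraries of a group, nor whether both chemistries were run on the same RNA, so p-values measure the spread between these libraries, which may be technical.

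Depth was 447990 to 1390424 reads in R9 (median 814717) and 566599 to 4236442 in R10 (median 2342551). Levels are CPM (reads scaled to the library's total) as deposited, without length correction, so that they compare libraries and not genes. The cell types carried their markers: the summed level of 8 neural progenitor markers was 5753 to 6855 CPM in the R10 progenitors and 175 to 377 in the R10 stem cells. The sum of 8 pluripotency markers was 17.1 to 28.0 CPM in the R10 progenitors and 11256 to 13878 in the R10 stem cells. In bulk RNA, more cells that express a gene and more RNA per cell cannot be told apart.

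The genes lie on 4 chromosomes of GRCm38 (mm10), in GENCODE M21. On chromosome 7, Ifitm2 (ENSMUSG00000060591.9, chr7:140954837-140955987, minus strand) lies close to Ifitm1 (ENSMUSG00000025491.14, chr7:140967221-140969825, plus strand) and Ifitm3 (ENSMUSG00000025492.6, chr7:141009586-141010770, minus strand). On chromosome 17, H2-K1 (ENSMUSG00000061232.16, chr17:33996017-34000347, minus strand) lies before Tap1 (ENSMUSG00000037321.17, chr17:34187553-34197225), Psmb8 (ENSMUSG00000024338.15, chr17:34197721-34201454) and H2-D1 (ENSMUSG00000073411.11, chr17:35262730-35267499), all on the plus strand. B2m (ENSMUSG00000060802.8) is at chr2:122147686-122153083 and Irf1 (ENSMUSG00000018899.16) at chr11:53770014-53778374, both on the plus strand. Ifitm2 and Ifitm3, and H2-K1 and H2-D1, are near-identical copies in part, so that long reads can be shared out wrongly between them. Reads placed on a joined Ifitm3 and Ifitm2 row reached at most 12.7 CPM.

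Because 3 Ifitm genes and H2-D1 moved together in the change of medium below, their promoters are shown with the motifs that interferon and inflammatory signals use. All 9 genes matched RefSeq promoter windows (GRCm38.p6, 250 bases before to 50 after a start), with 2 windows each for H2-K1 and Irf1. Searched on both strands were the core of the interferon-stimulated response element (GAAA, 2 free bases, GAAA), the gamma-activated site (TTCNNNGAA) and the NF-kB consensus. These were held by 3.44%, 8.30% and 5.81% of 32851 promoter windows. Positions count from the RefSeq start, and capitals mark the motif in the gene's own direction.
Ifitm2, response element core at -46 to -37, chr7:140955978-140956027, minus strand: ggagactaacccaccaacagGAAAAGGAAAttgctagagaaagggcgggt
Ifitm3, first response element core at 3 to 12, chr7:141010723-141010752, minus strand: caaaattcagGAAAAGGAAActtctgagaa
Ifitm3, another response element core at 20 to 29, chr7:141010706-141010735, minus strand: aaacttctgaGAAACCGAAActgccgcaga
B2m, response element core at -139 to -130, chr2:122147528-122147577, plus strand: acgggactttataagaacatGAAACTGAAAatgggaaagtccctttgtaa
H2-K1, NF-kB consensus at -111 to -102, chr17:34000429-34000478, minus strand: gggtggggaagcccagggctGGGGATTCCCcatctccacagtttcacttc
H2-D1, NF-kB consensus at -171 to -162, chr17:35262903-35262952, plus strand: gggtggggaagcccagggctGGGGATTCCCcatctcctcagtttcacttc
Psmb8, gamma-activated site at -97 to -89, chr17:34198078-34198126, plus strand: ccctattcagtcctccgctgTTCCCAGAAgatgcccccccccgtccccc
Irf1, gamma-activated site at -90 to -82, chr11:53769904-53769952, plus strand: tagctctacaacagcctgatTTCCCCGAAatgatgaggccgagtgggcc

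The response element core was thus in the windows of Ifitm2, Ifitm3 and B2m, and the NF-kB consensus in those of H2-K1 and H2-D1 within nearly the same surrounding letters. In H2-K1 and H2-D1, 2 overlapping NF-kB matches lay 1 base apart. Ifitm3 also held a gamma-activated site at 14 to 22, which overlaps the core at 20 to 29 but not the core at 3 to 12, and an NF-kB match at -116 to -107. B2m held an NF-kB match at -126 to -117 and Irf1 one at -13 to -4. The windows of Ifitm1 and Tap1 held none of these letters. A match is a description of the letters and not a bound site. Response elements that depart from these letters were not searched for, so a window without a match may still hold one.

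The levels fell into a few patterns. The Ifitm genes were low or moderate in progenitors and high after the change of medium, with Ifitm1 and Ifitm3 still high in stem cells. B2m and Tap1 were lower in stem cells than in progenitors. Psmb8 was read in serum medium and at 0 in all 9 stem cell libraries and all 5 libraries in 2i-LIF. Across the 23 R10 and the 22 R9 libraries, log2(CPM + 1) of Ifitm1 and Ifitm3 correlated with r of 0.87 and 0.81, the highest pair among the 9 genes by the lower of both values. The next pair was Ifitm2 and B2m, with 0.61 in R10 and 0.74 in R9. At the other end, Ifitm1 and Tap1 had -0.43 and -0.33. These are descriptions over libraries that share conditions and depth.

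**Figure D1:**
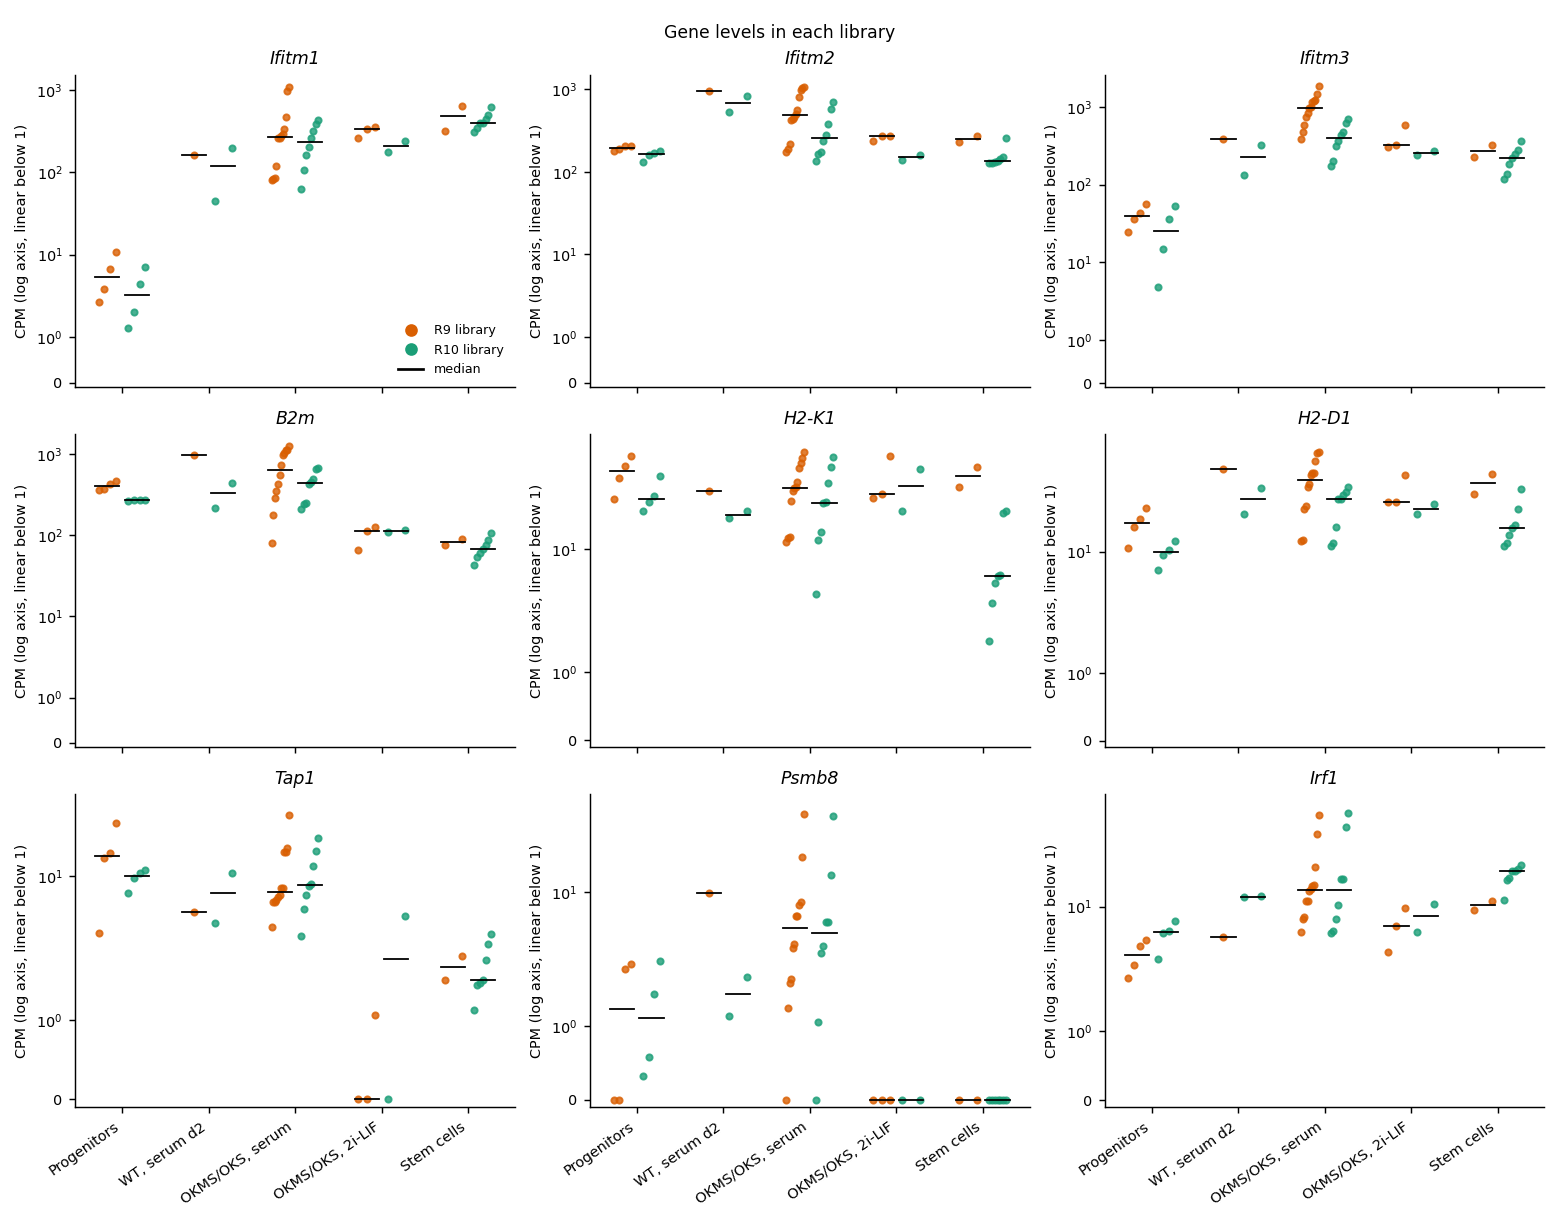
CPM of each of the 9 genes in every library (log axis, linear below 1), grouped by cell state, with R9 and R10 apart and a line at the median. Ifitm1 sits between 1.27 and 10.7 CPM in the 8 progenitor libraries and above them in the 37 other libraries, and Psmb8 is at 0 in all stem cell and 2i-LIF libraries.

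The medium control asks what serum medium with doxycycline does to WT progenitors without factors. It was tested with limma on log2(CPM + 1), and calls required a log2 difference of at least 1 with a p-value under 0.05 after Benjamini-Hochberg adjustment. In R10, 4 of the 9 genes rose, the 3 Ifitm genes and H2-D1, and none fell. Of all 14688 tested genes 26.8% were called, 14.9% higher and 11.9% lower. Serum, LIF, doxycycline and the gelatin coating came together with the move out of NPC medium, which held EGF and FGF-2. Their parts cannot be told apart.

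Ifitm1 was at 1.27 and 2.01 CPM in the WT progenitors of R10 and at 45.0 and 195 CPM in serum medium. The treated libraries differed among themselves, and both lay far above the progenitors. The difference was 5.18 ± 0.70 (SE) on the log2 scale (limma adjusted p = 0.0062, n = 2 per group). Ifitm3, the member best known for blocking influenza virus, went from 4.76 and 14.6 CPM to 132 and 320 CPM. The rise was 4.44 ± 0.61 (limma adjusted p = 0.0066), and the groups did not overlap. Ifitm2 was already at 130 and 162 CPM in the progenitors and reached 536 and 833 CPM. That rise was smaller, at 2.20 ± 0.29 (limma adjusted p = 0.0058).

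Of the class I chains, H2-D1, a classical heavy chain, rose from 6.99 and 10.3 CPM to 20.4 and 33.6 CPM, by 1.51 ± 0.40 (limma adjusted p = 0.039). H2-K1, the other heavy chain, was at 39.1 and 23.8 CPM before and 17.6 and 20.1 CPM after. Its difference of -0.67 ± 0.34 did not pass (limma adjusted p = 0.19). B2m, the light chain that every class I molecule needs, was at 267 and 273 CPM and then at 219 and 440 CPM, on both sides of the progenitors (0.20 ± 0.36, limma adjusted p = 0.71). Tap1, a subunit of the peptide transporter, was at 7.62 and 9.76 CPM and then at 4.70 and 10.5 CPM (-0.25 ± 0.48, limma adjusted p = 0.73). Psmb8, an inducible proteasome subunit, stayed under 2.5 CPM in all 4 libraries. Irf1, a transcription factor of the interferon response, went from 3.81 and 6.31 CPM to 12.1 and 11.9 CPM. Its difference of 1.13 ± 0.40 did not pass (limma adjusted p = 0.086).

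R9 held 1 WT library in serum medium, at 160 CPM of Ifitm1, 951 of Ifitm2, 382 of Ifitm3 and 48.1 of H2-D1. Each was above both WT progenitor libraries of R9, which had 10.7 and 3.87 CPM of Ifitm1, 205 and 190 of Ifitm2, 36.1 and 24.2 of Ifitm3, and 16.1 and 10.7 of H2-D1. B2m in that library was 968 CPM against 369 and 361. R9 alone, where the 1 treated library is assumed to vary as the 2 progenitor libraries do, gave differences of 4.41 for Ifitm1, 2.26 for Ifitm2, 3.65 for Ifitm3 and 1.80 for H2-D1. None of the 9 was called there (limma adjusted p = 0.051 to 0.21 for these 4), and 1562 of all 16625 genes were, while R9 and R10 together with chemistry as a term called the same 4, with Ifitm1 at 4.88 (limma adjusted p = 3.9e-05). With 2 libraries per group, leaving out any one R10 library ended all 4 calls: over the genes then tested, the adjusted p of Ifitm1 was 0.0525 to 0.189 with differences of 4.14 to 6.23. Over all genes, 3 of these 4 fits called 0 of 15562 to 16344 genes, and the fit without WT replicate 3 in serum medium called 1141 of 16196. The call of H2-D1 was also lost with quantile normalization (1.33, limma adjusted p = 0.081) and without the filter on low genes (limma adjusted p = 0.051).

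**Figure D2:**
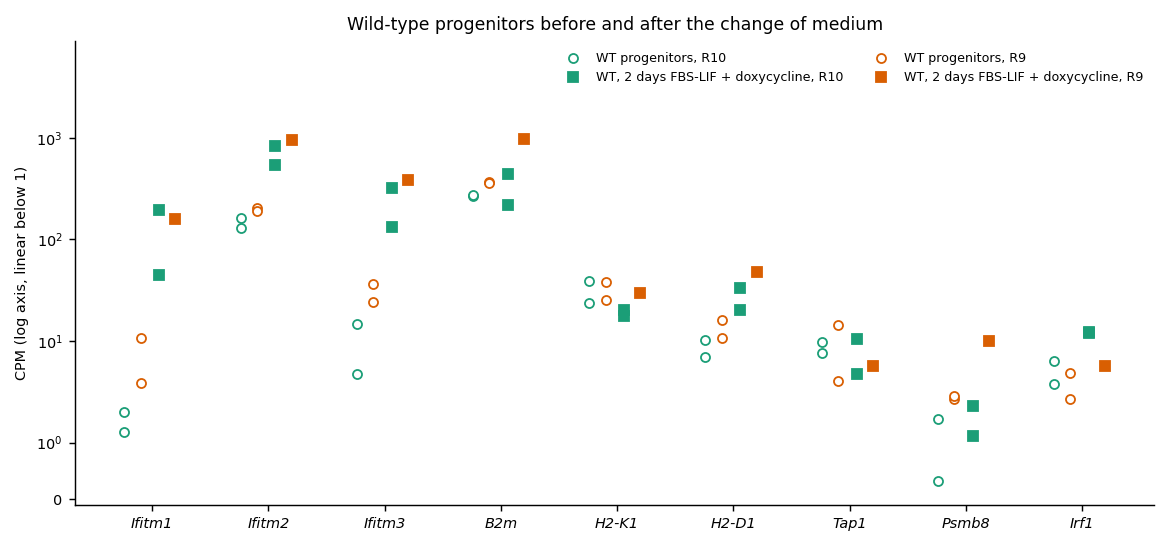
CPM of the 9 genes (log axis, linear below 1) in WT progenitors (open circles) and in WT cells after 2 days in serum medium (squares), 1 point per library, R10 in green and R9 in orange. The squares of Ifitm1, Ifitm2, Ifitm3, H2-D1 and Irf1 (not called) lie above the circles of the same chemistry, and those of Tap1 do not separate.

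Other genes of the pathway are described in the same R10 comparison by their counts, beside the 14.9% of all 14688 tested genes called higher and the 11.9% called lower, and by their median log2 difference, which was 0.12 over all genes. Of 13 interferon ligands and receptors, 5 were matched and tested, all of them receptors, and none was called (median 0.39). Of 20 signalling and regulatory factors, 17 were matched and 11 tested. Of these, 4 rose and none fell (median 0.97). Socs3, a feedback inhibitor of JAK-STAT signalling that LIF is known to induce, went from 4.45 and 6.60 CPM to between 206 and 211 CPM (5.03 ± 0.27, limma adjusted p = 0.0011). Irf9, the DNA-binding part of the complex that type I interferon activates, rose from between 3.44 and 4.76 CPM to between 28.3 and 35.6 CPM (2.70 ± 0.36, limma adjusted p = 0.0060). The others were the kinase Jak1 (1.44) and the transcription factor Stat3 (1.43).

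Of 51 interferon-stimulated genes, 46 were matched and 25 tested, of which 5 rose and 1 fell (median 0.96), so that the share that rose was near that of all genes. Ifi27 rose from at most 70.6 CPM to at least 263 CPM (2.38 ± 0.30, limma adjusted p = 0.0051). The others that rose were low genes: Gbp2 (3.05), the RNA sensor Ddx58 (2.42), the chemokine Cxcl10 (1.63) and Irgm2 (1.42). Rsad2, which encodes the antiviral protein viperin, fell by 1.89 on the log2 scale, from 2.58 and 2.86 CPM to 0 in both treated libraries. Of 27 genes of class I processing, 22 were matched and 19 tested, of which 4 rose and 1 fell (median 0.38), and here too the share that rose was near that of all genes. Tapbp, which bridges TAP and empty class I molecules, rose from at most 8.26 CPM to at least 66.2 CPM (3.09 ± 0.29, limma adjusted p = 0.0027). Tap2, the partner of Tap1 in the transporter, rose by 1.91, while Tap1 was not called. The nonclassical class I genes H2-T23 (3.74) and Mr1 (2.42) rose, and H2-Q7 fell by 2.04, with the limit that reads of H2 copies may be misplaced. Of the 4 other Ifitm genes, 3 were tested, and Ifitm10 (4.69) and Ifitm6 (2.65) rose.

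Astrocyte markers moved in this comparison as well. Of 6, 3 were called higher, and the summed level of the 6 was 7065 to 7249 CPM in the treated WT libraries of R10 against 1200 to 1559 in the 4 R10 progenitor libraries. Here the progenitor ranges cover these 4 libraries, of which those of OKMS and OKS are not in the tested comparison. None of the 6 was at 0 in all libraries of either group, and Gfap went from at most 5.72 CPM in progenitors to between 1056 and 3015 CPM. Of 6 fibroblast markers 4 were tested and 1, the collagen gene Col1a1, was called higher (3.59, limma adjusted p = 0.010). The median of the 4 was 1.96, against 0.12 over all genes. The sum of the 6 was 41.9 to 139 CPM in the treated libraries and 6.99 to 129 CPM in the 4 progenitor libraries. That overlap need not hold for the WT progenitors alone. Of 12 immune cell markers 7 were matched. Of the 2 tested, Cd74 was called higher (1.17, limma adjusted p = 0.048) and H2-Ab1 lower (-1.87, limma adjusted p = 0.022). For all 7, the sum was 1.57 to 5.93 CPM in the treated libraries and 1.76 to 9.93 CPM in the progenitors, with Tyrobp, H2-Aa and Cd3e at 0 in both. Of 4 endothelial markers 3 were matched, and 1, Kdr, was tested and not called (1.54, limma adjusted p = 0.079). Their sum was 5.60 to 12.5 CPM in the treated libraries and 1.59 to 3.08 CPM in the progenitors, without overlap and nearly all from Kdr, with Cdh5 at 0 in both. The part of these cell states in the rise of the Ifitm genes was not tested.

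Whether the factors add to the medium was asked at day 2 in R10, with OKMS and OKS together against WT, all in serum medium. Each system had 1 library, so the spread within that arm includes the difference between the systems. The factors and other differences between factor-carrying and WT cells cannot be told apart. None of the 9 genes was called by limma, edgeR or DESeq2, and none had an unadjusted limma p under 0.05. Of 15402 genes limma called 0.740%, 0.714% higher and 0.0260% lower. Ifitm3 was at 367 CPM in OKMS and 440 CPM in OKS, both above the WT libraries (0.96 ± 0.48, limma adjusted p = 0.37). B2m, at 486 and 654 CPM, was also above both (0.86 ± 0.46, limma adjusted p = 0.41). Ifitm1, at 161 and 105 CPM, lay between the WT libraries, and Ifitm2, at 378 and 575 CPM, overlapped their range. In R9 at day 2, with 1 WT library, B2m was at 968 CPM in WT, above OKMS at 724 CPM and below OKS. Ifitm3 was above WT in both systems there, and Ifitm1 and Ifitm2 were below WT in both. The R10 medium control and this R10 comparison use the same WT libraries in serum medium. Mitochondrial genes took 1.51% of reads in OKMS and 1.64% in OKS, against 0.319% and 0.165% in the WT libraries, and the part of this difference was not tested.

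Over the R9 time course, each day from 2 to 20 in serum medium was compared with day 0 in both systems by limma's moderated F test. Of the 9 genes 4 were called: Ifitm1, Ifitm2 and Ifitm3 rose, and B2m had its largest difference downwards. Of 19357 tested genes 10.7% were called, with the largest difference upwards in 5.50% and downwards in 5.24%. With 1 library per system and day, the fit takes what both systems share.

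Ifitm1 was at 2.69 CPM in the uninduced OKMS cells and then at 80.2, 474, 1094, 975, 291 and 119 CPM on days 2, 4, 6, 10, 14 and 20. In OKS it was at 6.75 CPM and then at 85.6, 263, 276, 259, 83.5 and 334 CPM. Both systems were above day 0 on every day, with the highest library at day 6 in OKMS. The largest fitted difference was 6.69 ± 0.76 (SE) at day 6 (limma adjusted p = 0.0019). The R10 library of OKMS at day 6 held 62.7 CPM, far below the 1094 CPM of R9, whereas OKS at day 6 held 388 CPM in R10. Over the R10 libraries of days 0, 2, 6 and 18 the gene was called too, at 5.26 (limma adjusted p = 0.020).

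Ifitm3 went from 43.1 CPM to 471, 831, 1231, 1167, 987 and 382 CPM in OKMS. In OKS it went from 55.6 CPM to 747, 965, 1194, 1446, 1866 and 581 CPM. It was above day 0 in all 12 later libraries and lower at day 20 than at day 14 in both systems. The largest difference was 4.76 ± 0.28 at day 14 (limma adjusted p = 2.5e-05), and in R10 it was 3.15 (limma adjusted p = 0.025).

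Ifitm2 went from 179 CPM to 566, 505, 428, 436, 218 and 172 CPM in OKMS, and from 202 CPM to 810, 1043, 1074, 988, 458 and 189 CPM in OKS. By day 20 both systems were slightly under their day 0 level. The largest difference was 1.93 ± 0.33 at day 4 (limma adjusted p = 0.0038). In the R10 libraries of days 0, 2, 6 and 18 it was not called, with 1.42 (limma adjusted p = 0.12).

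B2m was at 428 CPM in OKMS and then at 724, 545, 422, 352, 285 and 81.3 CPM. In OKS it was at 459 CPM and then at 1110, 1015, 1242, 977, 1113 and 175 CPM. OKMS was below OKS at every day from 2 to 20, and both were lowest at day 20. The largest difference from day 0 was -1.88 ± 0.39 at day 20 (limma adjusted p = 0.0061). Without the day 0 OKMS library the largest difference was a rise of 1.60 (limma adjusted p = 0.0021), and without either day 20 library the call was lost (limma adjusted p = 0.058 and 0.064). In R10 the largest difference was a rise of 1.05 that did not pass (limma adjusted p = 0.069).

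The other 5 genes were not called over the time course. H2-K1 was between 11.3 and 12.5 CPM in OKMS on days 2, 4 and 6, against 56.5 CPM at day 0 and 60.5 CPM at day 10 (limma adjusted p = 0.47). H2-D1 ranged from 12.3 to 65.6 CPM over the 12 induced libraries, and Tap1 from 4.46 to 26.7 CPM. Psmb8 and Irf1 had single high libraries. Psmb8 was at 18.3 CPM in OKMS at day 10 and 38.8 CPM in OKS at day 20, and at most 8.44 CPM in the other 10 induced R9 libraries. Irf1 was at 54.9 and 38.1 CPM in those libraries and at most 21.0 CPM in the others.

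OKMS at day 10 was high in R10 as well, with 13.6 CPM of Psmb8 and 56.9 CPM of Irf1. For OKS the days differ between the chemistries, and the high R10 library was that of day 18, with 37.1 and 43.5 CPM. In the other 6 induced R10 libraries in serum medium, Psmb8 reached at most 5.97 CPM and Irf1 at most 16.8 CPM. Isg15, a ubiquitin-like interferon-stimulated gene that was named after these values were seen, was at 9.85 and 12.2 CPM in these R9 libraries and at 5.94 and 14.1 CPM in the R10 ones, while OKS at day 2 in R10 held 6.72 CPM. These values rest on 1 library per condition and chemistry, and they rest on few reads: 12.2 CPM of Isg15 is 17 reads. By edgeR on recovered reads, Psmb8 and Irf1 were called over the R9 time course (edgeR adjusted p = 0.00022 and 0.0021), and by limma they were not (0.45 and 0.42).

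Among the list genes, 4 of 5 tested receptors had their largest difference from day 0 downwards, all at day 20: Ifnar2 (-1.25), Ifngr1 (-2.12), Ifngr2 (-2.32) and Il10rb (-2.33). Of 17 signalling factors Socs3 (5.11, day 2), Socs1 (3.69, day 10) and Stat3 (1.32, day 2) rose and Irf2 fell by 4.28 on the log2 scale (day 20). Of 42 interferon-stimulated genes, Trim25 (5.15), Xaf1 (3.38), Samhd1 (1.91) and Psmb10 (1.50) rose, and Ifi27 (-4.02) and Rsad2 (-3.07) fell. Of 22 class I genes, H2-T23 (2.85, day 2) and Psmb10 rose. These counts stand beside the 5.50% of all 19357 tested genes called with the largest difference upwards and the 5.24% downwards. The medians of the largest differences were -2.12, 1.02, 1.50 and -0.46 for these lists, beside 0.63 over all genes. Over the same course all 8 neural progenitor markers fell and 6 of 8 pluripotency markers rose, and the part of these cell states was not tested.

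**Figure D3:**
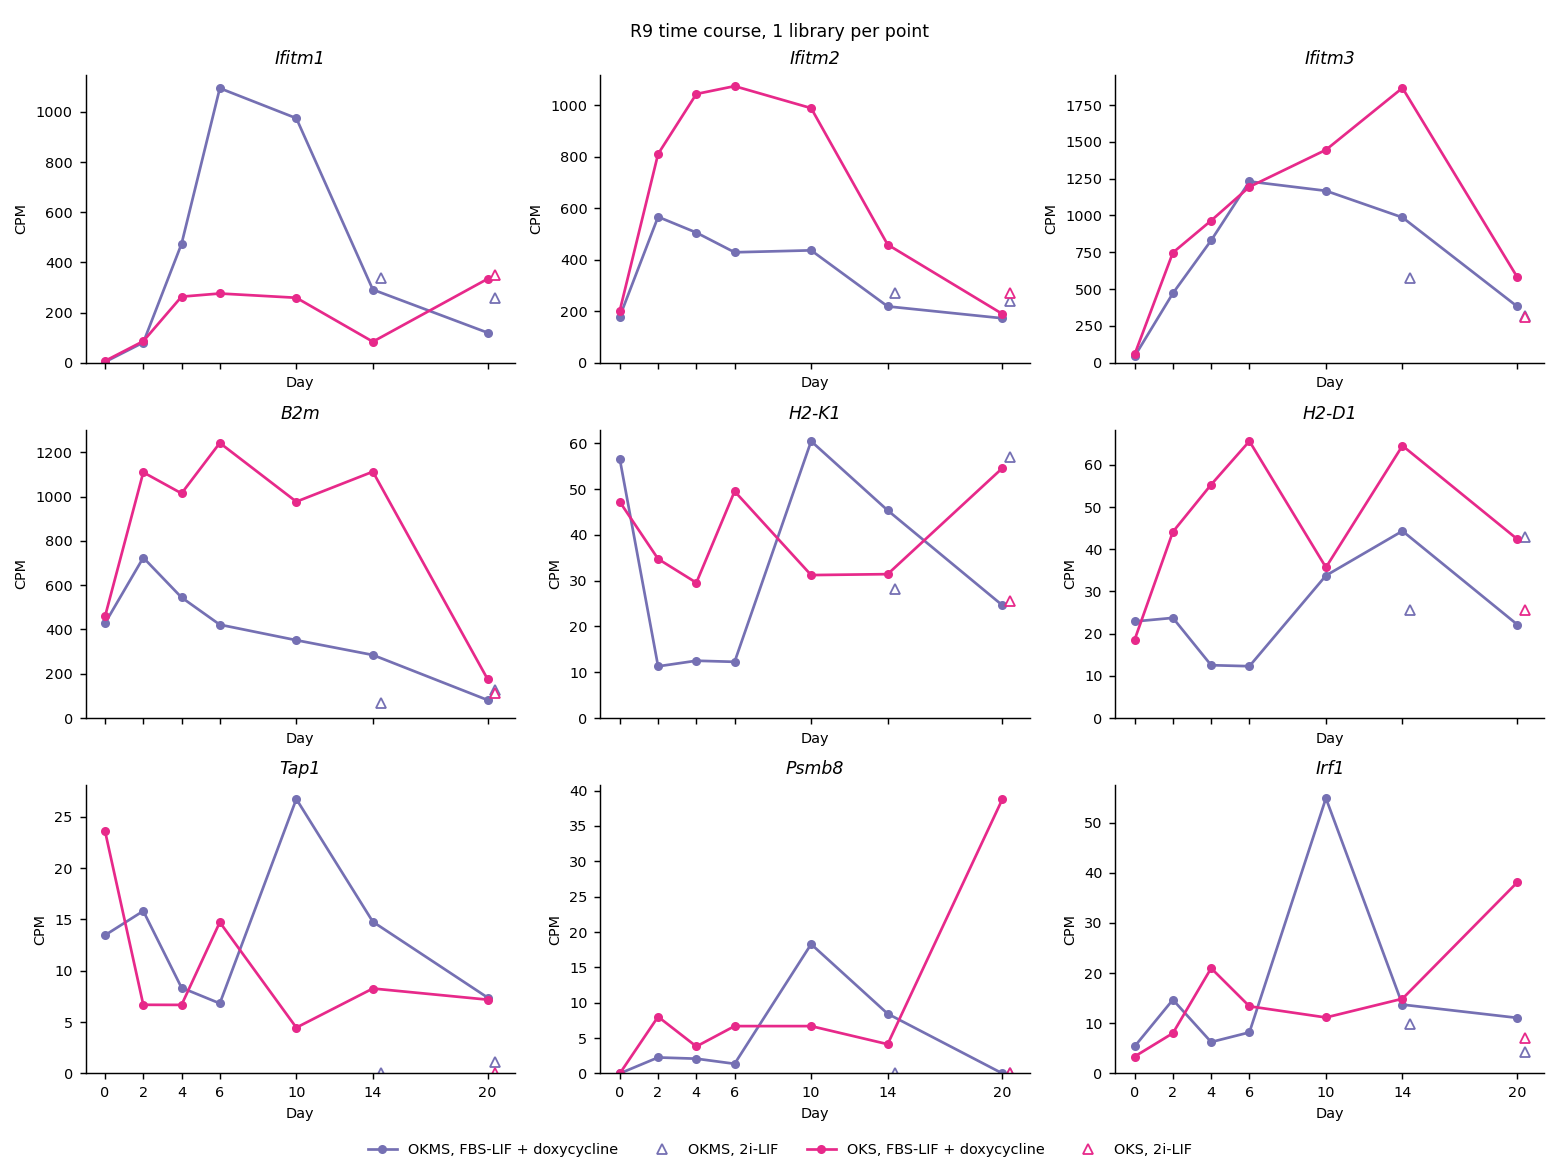
CPM (linear axis from 0) of the 9 genes by day in the R9 libraries, with OKMS and OKS in serum medium as lines and 2i-LIF as open triangles, 1 library per point. Ifitm1 peaks at 1094 CPM in OKMS at day 6, B2m is between 977 and 1242 CPM in OKS on days 2 to 14, and Psmb8 and Irf1 are high in OKMS at day 10 and OKS at day 20.

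The factor systems were compared over 6 days of the R9 course, with day as a block. Each system had 1 library per day, so the days are time points and not replicates of a system. The p-values thus measure how steady a difference was over days, and not a spread between cultures. The factors and other differences between the OKMS and OKS cells cannot be told apart. B2m and H2-D1, 2 of the 9 genes, were lower in OKMS than in OKS, where 11.0% of 14277 genes were called lower and 6.93% higher. B2m was lower in OKMS on 6 of 6 days, with a log2 difference of -1.27 ± 0.19 (limma adjusted p = 0.0010), with means of 401 ± 221 and 939 ± 385 CPM (SD, n = 6 days). H2-D1 was lower on 6 of 6 days (-1.13 ± 0.30, limma adjusted p = 0.014). Its call was lost without day 4 (limma adjusted p = 0.056) or day 6 (0.059). Ifitm2 was also lower on 6 of 6 days, with an adjusted p of 0.0042 and a difference of -0.88 ± 0.18, under the size asked for a call. Without day 20 its difference was -1.03 (limma adjusted p = 0.00059). Ifitm1 was higher in OKMS on 4 of 6 days (0.83 ± 0.37, limma adjusted p = 0.11), and without day 20 it was called higher in OKMS, at 1.29 (limma adjusted p = 0.0027). H2-K1, at -0.72 ± 0.36 (limma adjusted p = 0.15), passed without day 10 (-1.05, limma adjusted p = 0.045).

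In R10, with days 2, 6 and 18, B2m (-0.45) and Ifitm2 (-0.96) were lower in OKMS on 3 of 3 days and H2-D1 (-0.64) on 2 of 3. Ifitm1 was lower in OKMS on 2 of these 3 days, against its direction in R9: it was at 161, 62.7 and 202 CPM in OKMS and at 105, 388 and 312 CPM in OKS (-0.88, limma adjusted p = 0.46). None of the 9 was called there by limma, nor was any of 15135 genes. Tap1 was higher in OKMS on 5 of 6 days in R9 and 3 of 3 in R10. Ifitm3 was lower in OKMS on 5 of 6 and 3 of 3 days, and Psmb8 and Irf1 each on 4 of 6 and 3 of 3. These genes were not called in R9 either. Among the list genes in R9, 3 of 5 tested receptors were lower in OKMS, among them Ifngr1 (-1.84), as were 3 of 14 signalling factors, 5 of 28 interferon-stimulated genes and 3 of 19 class I genes. None of these was higher in OKMS. The counts stand beside the 11.0% of all 14277 tested genes called lower and the 6.93% called higher. The median over all genes was -0.11, and the list medians were -1.16, -0.48, -0.47 and -0.23. Neural progenitor markers (5 of 7 tested) and astrocyte markers (4 of 6) were lower in OKMS and pluripotency markers (3 of 8) higher, and their part in the differences was not tested.

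The move to 2i-LIF was compared in 5 pairs of the same day, system and chemistry: OKMS at days 14 and 20 and OKS at day 20 in R9, and both systems at day 18 in R10. Tap1 and Irf1, 2 of the 8 tested genes, were lower in 2i-LIF, where 12.3% of 14935 genes were called, 6.32% lower and 5.95% higher. Psmb8 was too low for the test. Serum, the kinase inhibitors and any difference in doxycycline came together in this move, so their parts cannot be told apart.

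Tap1 was at 14.8, 7.39, 7.19, 8.90 and 3.84 CPM in serum medium, in the order of the pairs above. In 2i-LIF it was at 0, 1.07, 0, 5.29 and 0 CPM. It was lower in 5 of 5 pairs (-2.39 ± 0.53, limma adjusted p = 0.0046), and in the 3 R9 pairs alone it was also called (-3.01, limma adjusted p = 0.0092). The 2 R10 pairs alone gave -1.47, which did not pass (limma adjusted p = 0.47), and 188 of all 15446 genes were called there. In 3 of the 2i-LIF libraries no read of it was found, so the size depends on the value added before the logarithm.

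Irf1 was at 13.7, 11.1, 38.1, 10.4 and 43.5 CPM in serum medium and at 9.77, 4.30, 6.98, 10.6 and 6.26 CPM in 2i-LIF. It was lower in 4 of 5 pairs, most of all in the OKS pairs (-1.30 ± 0.42, limma adjusted p = 0.043). In the R9 pairs alone it was not called (-1.31, limma adjusted p = 0.13), nor in the 2 R10 pairs alone (-1.30, limma adjusted p = 0.45). The call was lost without any of 4 pairs: without OKMS day 14 (limma adjusted p = 0.063), OKMS day 20 (0.063), OKS day 20 (0.22) or OKS day 18 (0.21).

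Psmb8 was at 8.44, 0, 38.8, 0 and 37.1 CPM in serum medium and at 0 in all 5 libraries in 2i-LIF. It was thus lower in 3 pairs and at 0 on both sides in the OKMS pairs of days 20 and 18. Summed over the 5 serum libraries it had 91 reads, or 19.8 CPM, which is at least 25.1-fold higher than the 0.787 CPM that 3 reads over the 5 libraries in 2i-LIF would give. That limit covers counting error only. The OKS day 20 library held 54 of the 91 reads, and without that pair the limit was at least 11.3-fold. Without the filter on low genes the difference was -2.76 (limma adjusted p = 0.027).

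B2m was lower in 4 of 5 pairs (-0.83 ± 0.26, limma adjusted p = 0.043), under the size asked for a call. Its values were 285, 81.3, 175, 212 and 250 CPM in serum medium and 66.0, 126, 112, 116 and 111 CPM in 2i-LIF. Only the OKMS pair of day 20 went up, and without it the difference was -1.19 (limma adjusted p = 0.0018). Ifitm3 was lower in 4 of 5 pairs (-0.54 ± 0.22, limma adjusted p = 0.11). Ifitm1 (0.17 ± 0.19, limma adjusted p = 0.63), Ifitm2 (0.26 ± 0.16, 0.32; higher in 4 of 5 pairs), H2-K1 (-0.32 ± 0.32, 0.58) and H2-D1 (-0.31 ± 0.28, 0.52) did not pass, and their values overlapped between the media.

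**Figure D4:**
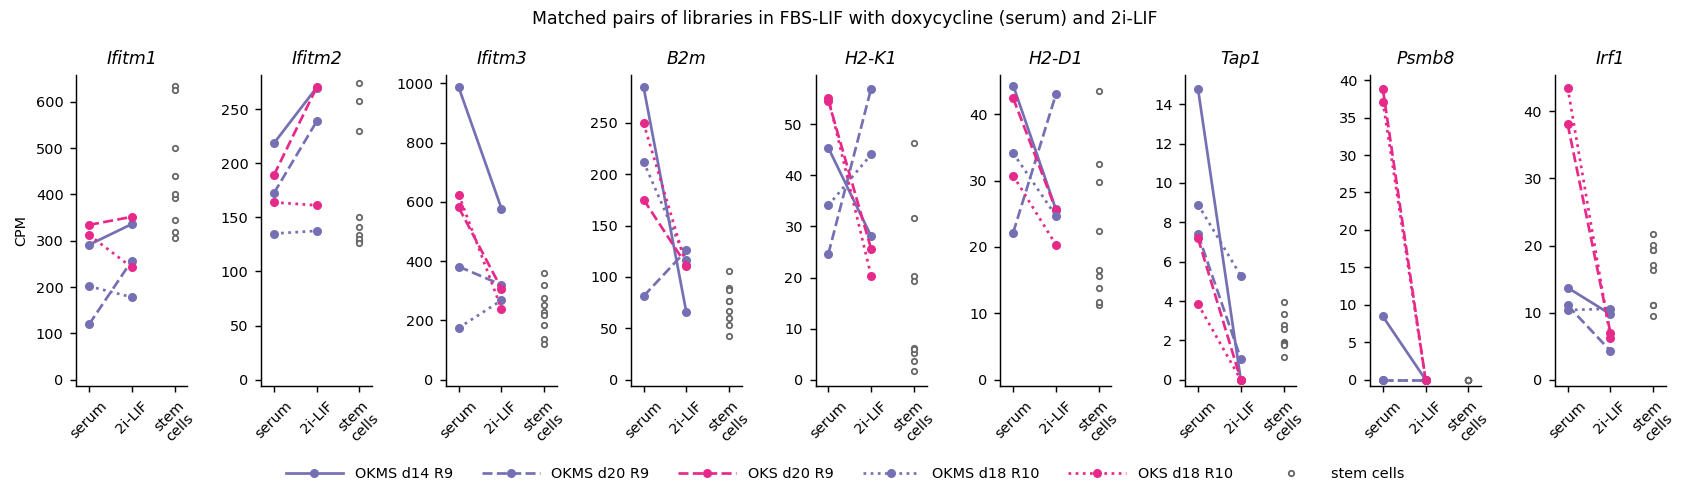
CPM (linear axes) of the 9 genes in the 5 pairs of libraries, joined by a line from serum medium to 2i-LIF, and in the 9 stem cell libraries (open circles). Every Tap1 line goes down, the OKS lines of Psmb8 and Irf1 go from the highest values to 0 or to under 7 CPM, Ifitm2 goes up in 4 of 5 pairs, and Ifitm1 goes up in 3 and down in 2.

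The list genes of this comparison are read beside the 6.32% of all 14935 tested genes called lower and the 5.95% called higher. Among them, 1 of 4 tested receptors (Ifngr2, -1.66) and 1 of 15 signalling factors (Irf8, a myeloid interferon regulatory factor, -1.86) were lower in 2i-LIF. Of 25 interferon-stimulated genes 5 were lower and 1 was higher. Gbp2 was at 1.23 to 67.5 CPM in serum medium and at 0 in all 5 libraries in 2i-LIF (-3.34 ± 0.63, limma adjusted p = 0.0014). Psmb10, an inducible proteasome subunit like Psmb8, was at 41.5 to 178 CPM in serum medium and at most 44.2 CPM in 2i-LIF (-1.80 ± 0.24, limma adjusted p = 6.9e-05). Ddx58 (-2.04), Ifi27 (-2.03) and Bst2, a membrane tether that holds back budding viruses (-1.04), were also lower. Oas1a, of the family of RNA-sensing synthetases, went the other way, from 2.97 to 9.34 CPM in serum medium to 49.4 to 122 CPM in 2i-LIF (3.85 ± 0.27, limma adjusted p = 8.9e-08).

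Of 18 tested class I genes, Psmb10, Tap2 (-1.80) and H2-T23 (-1.51) were lower and Cd1d1, a lipid-presenting relative of class I (1.78), was higher. Ifitm10 was lower (-1.76), with 0 CPM in all 5 libraries in 2i-LIF. The list medians were -0.47 for receptors, 0.06 for signalling factors, -0.11 for interferon-stimulated genes and -0.55 for class I genes, beside -0.03 over all genes. Pluripotency markers were higher in 2i-LIF (6 of 8) and neural progenitor markers lower (3 of 5 tested), and 1 of 4 tested immune markers was lower. The part of these cell states was not tested.

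Stem cells and progenitors are the end points of the path. In R10, 6 of the 8 tested genes were called, where 45.8% of 15415 genes were, with 22.4% higher and 23.5% lower. Ifitm1, Ifitm3 and Irf1 were higher in stem cells, and B2m, H2-K1 and Tap1 were lower. With a background this high, the count of members says little by itself. Mitochondrial genes took 1.81% to 2.35% of reads in 6 of the 7 stem cell libraries and 0.124% in the unnumbered R1 library, against 0.153% to 1.12% in the progenitors. The part of this difference was not tested.

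Ifitm1 was at 1.27 to 7.01 CPM in the 4 progenitor libraries (median 3.20) and at 306 to 624 CPM in the 7 stem cell libraries (median 401), a difference of 6.66 ± 0.28 (limma adjusted p = 1.7e-11). Ifitm3 was at 4.76 to 53.7 CPM in progenitors and 120 to 359 CPM in stem cells (3.33 ± 0.47, limma adjusted p = 1.3e-05). In both genes the groups did not overlap, but only those of Ifitm1 were wide apart. Ifitm2 was at 130 to 181 CPM in progenitors and 127 to 258 CPM in stem cells, so that the groups overlapped (-0.10 ± 0.18, limma adjusted p = 0.62).

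B2m was at 267 to 273 CPM in progenitors, a narrow range, and at 42.9 to 105 CPM in stem cells (-1.99 ± 0.19, limma adjusted p = 2.4e-07). Tap1 was at 7.62 to 11.1 CPM and at 1.16 to 3.94 CPM (-1.72 ± 0.25, limma adjusted p = 1.8e-05). H2-K1 was at 20.2 to 39.1 CPM in progenitors. In stem cells it was at 6.12 and 1.79 CPM in O4G, at 5.97, 3.61 and 5.23 CPM in R1, and at 20.3 and 19.4 CPM in R1-Clone3 (-1.83 ± 0.46, limma adjusted p = 0.0025). Within R10 the clone was thus near the lowest progenitor and the parent line far below it. The R1 library of R9, without a clone library beside it, was at 31.6 CPM. H2-D1 was not called (0.73 ± 0.27, limma adjusted p = 0.023, under the size asked). Irf1 was at 3.81 to 7.59 CPM in progenitors and 11.2 to 21.8 CPM in stem cells (1.44 ± 0.22, limma adjusted p = 2.4e-05).

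In R10, the R1 library that carries no number in its label had the highest Ifitm1, at 624 CPM, and the lowest B2m. Against the progenitors it alone gave 0.84 for Irf1 (limma adjusted p = 0.17), in a fit where 1 library is assumed to vary as the progenitors do, so that the missed threshold says little. Psmb8 had 15 reads over the 4 R10 progenitor libraries (1.41 CPM) and none over the 7 stem cell libraries, at least 10.4-fold higher than the 0.136 CPM of 3 reads there. In R9 it had 5 reads over the 4 progenitor libraries (1.61 CPM) and none over the 2 stem cell libraries, where 3 reads would give 1.41 CPM, so that the limit was only 1.14-fold (-0.96 ± 0.69, limma adjusted p = 0.31). All 5 reads were in the 2 WT progenitor libraries. The fit against these alone gave -1.92 (limma adjusted p = 0.0068), but it keeps just the libraries that hold the reads, so nothing is read from it. Both limits cover counting error only.

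The 2 stem cell libraries of R9 were set against its 4 progenitor libraries, and 6 of 9 genes were called, beside 36.0% of 15746 genes, with 17.6% higher and 18.4% lower. Ifitm1 was at 2.69 to 10.7 CPM and then at 318 and 633 CPM (6.15 ± 0.52, limma adjusted p = 0.00025). Ifitm3 (2.80 ± 0.33), H2-D1 (1.09 ± 0.34, limma adjusted p = 0.041) and Irf1 (1.19 ± 0.35, 0.032) were higher, and B2m (-2.27 ± 0.14) and Tap1 (-1.96 ± 0.64, 0.047) lower. H2-D1 and Tap1 lost their call in 5 of 6 fits that left out 1 library and Irf1 in 3 of 6, with adjusted p up to 0.30. H2-K1 was at 46.4 and 31.6 CPM in the stem cells of R9, within the progenitors' range of 25.4 to 56.5 CPM (-0.06 ± 0.34, limma adjusted p = 0.90). Mitochondrial genes took 0.310% and 0.344% of reads in the R9 stem cells and 0.493% to 0.884% in the progenitors, the opposite order to most R10 libraries, and the part of this difference was not tested. The stem cell difference itself was compared between R10 and R9 by an interaction term, and none of the 9 genes was called by limma, edgeR or DESeq2, beside 3.63% of 18341 genes by limma (1.35% with a larger and 2.28% with a smaller difference in R10). H2-K1 had the only unadjusted p under 0.05, at 0.021 (-1.77 ± 0.71, limma adjusted p = 0.15).

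The list genes in R10 are read beside the 22.4% of all tested genes called higher and the 23.5% called lower, and beside a median of 0.01 over all genes. Of 27 tested interferon-stimulated genes 15 were higher in stem cells and 5 lower, with a median of 1.12. Oas1a (6.18), Trim25 (5.04) and Xaf1 (4.35) were among those higher, and Ifi27 (-3.92) and Gbp3 (-3.91) among those lower. Of 5 tested receptors 4 were lower, among them Ifngr1 (-2.54) and Ifngr2 (-2.77), the chains of the interferon gamma receptor, with a median of -2.41. Of 17 tested class I genes 5 were lower, among them Tap2 (-2.70), a share near that of all genes, and none was higher (median 0.02). Of 14 signalling factors 6 were higher, among them Socs3 (3.46), and 2 lower, Irf2 (-4.81) and Jak2 (-1.18), with a median of 0.67.

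Reprogrammed cells in 2i-LIF were set beside the stem cells with chemistry as a term. None of the 8 tested genes was called by limma, edgeR or DESeq2, although 4 had an unadjusted limma p under 0.05. Of 14946 genes limma called 3.36%, 1.87% higher and 1.49% lower. Ifitm1 was at 178 to 352 CPM in the 5 libraries in 2i-LIF and at 306 to 633 CPM in the 9 stem cell libraries, with some overlap (-0.80 ± 0.19, limma adjusted p = 0.021, under the size asked). Without the O4G library of R9 it was called, at -1.01 (limma adjusted p = 0.0028), as it was in R10 alone, at -1.01 (limma adjusted p = 0.016). Irf1, at 4.30 to 10.6 CPM in 2i-LIF and 9.47 to 21.8 CPM in stem cells, was called in R10 alone (-1.02, limma adjusted p = 0.040) and not over both chemistries (-0.81 ± 0.25, limma adjusted p = 0.068). B2m was at 66.0 to 126 CPM in 2i-LIF and 42.9 to 105 CPM in stem cells (0.52 ± 0.21, limma adjusted p = 0.16). Tap1 was at 0 to 5.29 CPM and 1.16 to 3.94 CPM (-0.81 ± 0.42, limma adjusted p = 0.28), and without the OKMS library of day 18 its difference was -1.51 (limma adjusted p = 0.022).

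Late cells that stayed in serum medium differed from the stem cells in 4 of 8 tested genes, where 17.4% of 14731 genes were called, 8.19% higher and 9.17% lower. B2m was higher, at 81.3 to 1113 CPM in the 6 serum libraries of days 14, 18 and 20 (1.70 ± 0.42, limma adjusted p = 0.0063). Tap1 was higher, at 3.84 to 14.8 CPM (1.33 ± 0.32, limma adjusted p = 0.0051), with its lowest serum library just under its highest stem cell library. Ifitm3 was higher (1.08 ± 0.38, limma adjusted p = 0.048) and Ifitm1 lower (-1.02 ± 0.31, limma adjusted p = 0.023). Ifitm3 lost its call in 11 of the 15 fits that left out 1 library, with differences of 0.84 to 1.57 and adjusted p up to 0.19. Ifitm1 lost its call in 6 of the 15, with differences of -1.23 to -0.77 and adjusted p up to 0.11. H2-K1 was not called (1.33 ± 0.52, limma adjusted p = 0.070) and passed in 3 of the 15: without the O4G library of R9 (1.74, limma adjusted p = 0.035), OKMS at day 20 (1.48, 0.039) or OKS at day 14 (1.44, 0.048). In R10 alone B2m (1.75, limma adjusted p = 0.00089) and H2-K1 (2.51, 0.014) were called, and Tap1 (1.10, 0.063), Ifitm3 (0.67, 0.29) and Ifitm1 (-0.74, 0.047, under the size asked) were not. The 2i-LIF and serum comparisons use the same 9 stem cell libraries.

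Cell state markers differed between these groups as well. Of 8 neural progenitor markers 5 were tested and 4 were called higher in the late serum cells. Their sum was 267 to 5177 CPM there and 175 to 377 CPM in the stem cells, with Olig2 at 0 in all stem cell libraries. Of 8 pluripotency markers 6 were called lower, with sums of 769 to 15716 CPM and 11256 to 14380 CPM and none at 0 in either group. Of 6 astrocyte markers 3 were tested, 1 called higher and 1 lower, with sums of 32.0 to 380 CPM and 40.0 to 98.7 CPM. Aqp4, S100b and Slc1a2 were at 0 in all stem cell libraries and none of the 6 was at 0 in all late serum libraries. Of 6 fibroblast markers 2 were tested and 1 was called higher, with sums of 7.42 to 136 CPM and 0.947 to 12.8 CPM. The 7 matched immune markers summed to 7.44 to 41.5 CPM and 15.1 to 30.5 CPM. The 3 matched endothelial markers summed to 0.827 to 53.4 CPM and 35.5 to 77.3 CPM, with Cdh5 at 0 in all stem cell libraries. Of the 2 tested, Pecam1 was called lower in the late serum cells (-1.96, limma adjusted p = 0.028). In each of these sums the ranges of the groups overlapped. The part of these markers in the differences of B2m, Tap1, Ifitm3 and Ifitm1 was not tested.

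The Ifitm1 gene value is a sum over transcripts, and these differed between cell states. The deposited transcript table held 31 Ifitm1 transcripts in TPM, and 20 reached 5 TPM in at least 3 libraries. These values are a description with no test. Transcripts 634 and 631 each match an annotated transcript at every splice junction. Transcript 631, with 3 exons and 785 bases, gave 2.05% of the summed Ifitm1 TPM and reached at most 27.9 TPM. Transcript 634 has 2 exons (chr7:140968069-140968438 and chr7:140969489-140969813) and 695 bases, and gave 54.2%. The 26 transcripts that start upstream of the annotated gene gave 36.9%.

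Transcript 573, with 4 exons and 1157 bases, starts 12370 bases before the annotated gene. Its first exons, chr7:140954851-140955189 and chr7:140955683-140955916, are on the plus strand and lie over Ifitm2, which is on the minus strand. Its last exons, chr7:140968198-140968438 and chr7:140969489-140969831, are those of Ifitm1, and its predicted reading frame of 106 residues is as long as that of transcript 634. Of the 26 upstream transcripts, 22 had exon bases within the span of Ifitm2. The sources used here do not state that strand entered the counting, so reads of Ifitm2 and of these exons may not have been told apart.

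In all 8 progenitor libraries transcript 634 was at 0 TPM, and the whole Ifitm1 value came from upstream starts. These shares rest on 2 to 12 Ifitm1 reads in each progenitor library, beside 120 to 563 reads of Ifitm2, which the upstream exons overlap. Transcript 573 held 1.65, 1.93, 4.00 and 4.24 TPM in the R10 progenitors and 3.70 to 15.0 TPM in those of R9. Transcript 634 was above 0 in all 37 other libraries. In the WT cells in serum medium it was at 23.5 and 84.8 TPM in R10 and 82.9 TPM in R9, and transcript 573 at 19.1, 24.2 and 52.9 TPM. Upstream starts gave 53.8% and 31.4% of Ifitm1 in these R10 libraries and 57.3% in the R9 library.

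In stem cells, upstream starts gave 13.4% to 22.4% in R10 and 46.0% and 52.2% in R9, so that the share differed with the chemistry more than within it. Transcript 573 was highest in OKS in serum medium in R9, at 73.9, 108, 72.3 and 104 TPM on days 2, 4, 6 and 10. In OKMS on the same days it was at 25.6, 8.23, 25.5 and 5.12 TPM. In R9, transcript 634 had the opposite order on these days. It was at 24.6, 187, 191 and 213 TPM in OKS and 69.6, 247, 646 and 426 TPM in OKMS. In R10, transcript 573 was higher in OKS on days 2, 6 and 18. It was at 22.7, 37.4 and 4.17 TPM there and at 15.0, 3.36 and 0 TPM in OKMS. Transcript 634 was higher in OKMS on days 2 and 18, at 71.9 and 113 TPM against 53.7 and 65.9 TPM. At day 6 it was not, with 27.9 TPM in OKMS and 294 TPM in OKS. Over libraries, log2(TPM + 1) of transcript 573 and log2(CPM + 1) of Ifitm2 correlated with r of 0.82 in both chemistries, against 0.21 in R10 and 0.50 in R9 for transcript 634. These libraries share conditions, and 573 overlaps Ifitm2, so that shared reads are included.

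**Figure D5:**
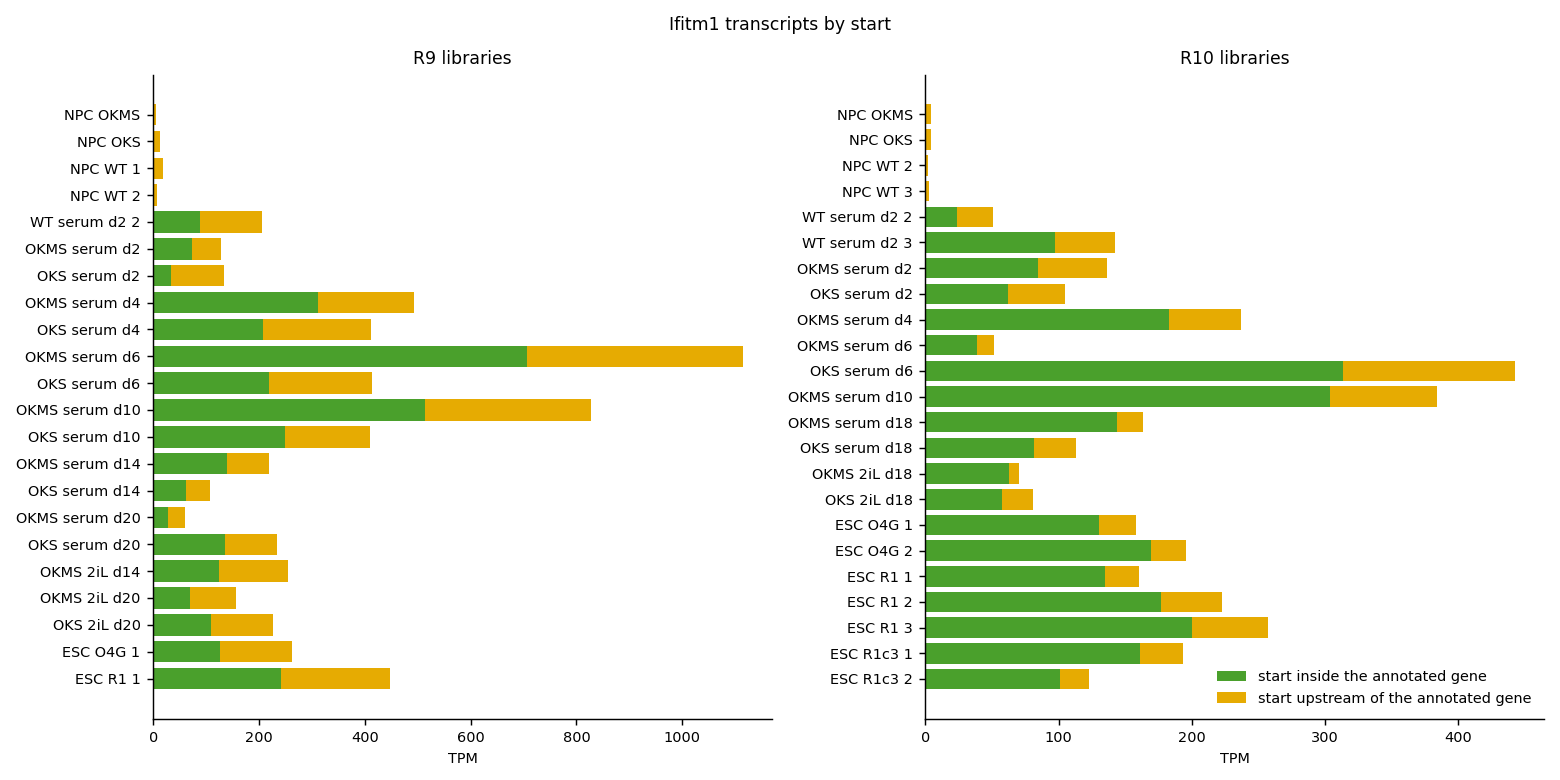
Ifitm1 TPM in each library as stacked bars, for transcripts that start inside the annotated gene (green) and upstream of it (yellow), with R9 and R10 on separate axes. The 8 progenitor bars are all yellow and at most 18.5 TPM, and the green part dominates in R10 stem cells.

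Among the other genes, 1 transcript gave most of the gene value for Psmb8 (its only transcript), Ifitm3 (98.2% of TPM over all libraries), Tap1 (90.9%) and Irf1 (71.9%). H2-K1 (36.5%), B2m (33.1%), H2-D1 (28.1%) and Ifitm2 (18.6%) were spread over more forms, with 134 transcripts listed for Ifitm2.

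The genes whose levels were most like each member over both chemistries were found among 13539 genes, by the lower of r in R9 and R10. For Ifitm1 they were Plscr1, a phospholipid scramblase (0.90), Anxa7 (0.89) and Rnh1 (0.89). For Ifitm2 they were Cst3 (0.96), Ccn5 (0.95) and Ctsl (0.94), for Ifitm3 Ahnak (0.92), its unannotated antisense row (0.91) and Slc6a6 (0.89), and for B2m Gnas (0.94), Prnp (0.94) and Gng12 (0.93). Psmb8 was most like Tpm1 (0.80), a joined row of Gbp2b and Gbp5 (0.80) and Gbp2 (0.79), the last being guanylate-binding proteins that interferon gamma is known to induce. Irf1 was most like Psme1, a proteasome activator subunit (0.72), Ttc12 (0.71) and Mcam (0.69). For Tap1 the 3 genes had 0.81 to 0.83, for H2-D1 0.71 to 0.73 and for H2-K1 0.56 to 0.61, led by P3h4, Misp3 and Tmem141. No member was among the 3 genes most like another member.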

How the data were processed

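Per the submitters' processing notes, reads were aligned with minimap2 2.24-r1122 to mm10. The authors deposited gene values as CPM and transcript values as TPM in tables named after IsoQuant, whose version is not given in the sources used here. Transcript categories come from a further deposited table that has SQANTI3 columns, per the file headers. Strand use in counting is not stated. Divided by the value of 1 read, 100% of the deposited CPM came out whole within 0.02 reads, which gave the depth of a library. Of the gene table, 13 columns that match no sample here were left out. The TPM keep no depth.

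Genes with at least 1 CPM in as many libraries as the smaller arm (2 in the time course) were tested on log2(CPM + 1) with limma 3.58.1 (mean-variance trend in eBayes; R 4.3.3), two-sided, with p-values adjusted over all tested genes. The added 1 makes differences of low genes too small. As alternatives, the pseudocount was set to 0.25, the filter dropped or raised to 5 CPM, and the values centred on medians or quantile normalized. Recovered reads were fitted with edgeR 4.0.16 and DESeq2 1.42.0, blocks and libraries were varied, and each library or pair was left out. The fits of R9 and R10 together for the medium, of the unnumbered R1 library alone, of the R10 pairs alone, and of left-out libraries over the genes of the full fit, and the Psmb8 limit without a pair, were added after seeing the data. The scripts were tested on simulated data. The 9 genes, the lists and the tests were chosen with earlier results of these data known. Named besides the members are list genes called in the medium control or in the 2i-LIF pairs (at most 6 per list), further list genes as examples elsewhere, chosen after their values were seen, the 3 genes most like each member, and Ifitm1 transcripts of at least 5 TPM in 3 libraries. Psmb9 and Psmb10 stand in both the interferon-stimulated and the class I list. Sequences are from RefSeq (GRCm38.p6), gene positions from GENCODE M21.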

Additional observations from a re-analysis of the deposited data

Results flagged for a closer look

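Of 26 sets of 4 to 7 libraries of one state and chemistry (9 genes in the R10 progenitors, R9 progenitors and R10 stem cells, leaving out Psmb8 in stem cells, where all were 0), 1 held a library far from the others. Chance alone gives about 1 in 20 such sets. Ifitm2 was at 258 CPM in the R1 stem cell library without a number in its label, and at 127 to 151 CPM in the other 6 R10 stem cell libraries. Its gap to the nearest library was 0.818 of the whole range of the 7.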

How the results depend on the processing

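Each of 86 single-gene results was computed under alternatives, 1613 values in all. Direction and call were kept in 1490 of them (in 56, a gene not called either way changed sign), 105 lost a call, 16 gained one and 2 reversed, both B2m over the time course (1.05 in R10 and 1.60 without the OKMS day 0 library; -2.47 without the OKS one). The number of called members in the medium control, 4, was 0 in R9 alone (1 treated library; 1562 of 16625 genes called) and 0 to 1 when a library was left out (1 over the genes of the full fit, Ifitm1 without replicate 3 in serum medium; 0 to 1190 of all genes called). WT replicates 2 and 3 share numbers across media in R10, and deviations of same-numbered libraries correlated with r = 0.474 over 14688 genes, but these are 2 pairs with only a number in common; with the replicate block 5 members were called, Irf1 as well (limma adjusted p = 0.026), and 5605 genes in place of 3940. Over the time course 2 members were called in R10 in place of 4, with 1580 of 17487 genes called in place of 2078 of 19357. Between OKMS and OKS, 2 members became 1 with median centring, 0 in R10, 0 without the day block and 1 to 4 when a day was left out. Of all genes, 2567 of 14277 were called at first and 2672 with median centring. In R10 0 of 15135 were called, without the day block 2, and with a day left out 1686 to 3236. Between 2i-LIF and serum medium, 2 became 1 with a pseudocount of 0.25, 1 by DESeq2, 1 in the R9 pairs, 0 in the R10 pairs, 1 without the pair block and 1 to 2 when a pair was left out. Of all genes, 1832 of 14935 were called at first, 1622 with that pseudocount and 1242 by DESeq2. The R9 pairs called 1166 of 15482 and the R10 pairs 188 of 15446. Without the pair block 1805 were called, and with a pair left out 1210 to 1908. Stem cells against progenitors in R9 gave 3 to 5 in place of 6 when a progenitor library was left out. Of all genes, 5501 to 5880 were then called in place of 5671. Leaving out a stem cell library leaves 1 in its group. Between 2i-LIF and stem cells, 0 became 2 in R10 and 0 to 1 with a library left out. Of all genes, 502 of 14946 became 1438 of 15880 in R10 and 267 to 623 with a library left out. Between late serum cells and stem cells, 4 became 2 at a minimum of 5 CPM, 2 in R10 and 2 to 4 with a library left out. Of all genes, 2558 of 14731 became 1580 of 10800 at that minimum and 3610 of 16254 in R10. With a library left out 2245 to 3045 were called. The cause of these changes was not tested. Tap1, Psmb8 and H2-K1 rest on few reads in many libraries, and 1 library per time point limits the time course to what both systems share.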

Other observations

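Among the R10 stem cells, the R1-Clone3 libraries stood above their parent line in Bst2 as well as in H2-K1. R9 held no clone library, and its R1 library had 31.6 CPM of H2-K1, above both clone libraries of R10. Bst2, a membrane tether of budding viruses, was at 133 and 122 CPM in R1-Clone3, at 59.7, 72.5 and 33.2 CPM in R1 and at 49.0 and 44.8 CPM in O4G, all in R10. With 2 libraries of 1 clone this was not tested, and it was noticed in the values.

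Genes other than the members were also high in OKMS at day 10. Bst2 was at 537 CPM there in R9 and at 481 CPM in R10, against at most 259 CPM in any other library. Gbp2 was at 29.5 and 14.4 CPM in these 2 libraries and at 67.5 CPM in OKS at day 20 in R9 and 23.05 CPM in OKS at day 18 in R10. It was at most 13.4 CPM in every other library. These were chosen after their values were seen.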
